A study of Homo sapiens with 12 samples.

Results

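The genes described here encode the subunits of the proteasome, its activators and its dedicated assembly chaperones. They are the 44 of 40825 genes in the expression table whose symbol is PSMA, PSMB, PSMC, PSMD, PSME or PSMG followed only by a number, with the immunoproteasome genes PSMB8 and PSMB9 left out. Each symbol stood on 1 row. In order of class they are 7 PSMA genes, 9 PSMB, 6 PSMC, 14 PSMD, 4 PSME and 4 PSMG genes. The study sequenced RNA of 2 human hepatocellular carcinoma cell lines, Huh7 and PLC/PRF/5 (labelled PLC), in 12 libraries that form 4 groups of 3. Per the labels, both lines were wild type (WT), and cells of each received either lenvatinib (labelled LV) or the solvent DMSO. The series asks how syntaxin 6 (STX6) bears on resistance to lenvatinib, an oral inhibitor of VEGF, FGF and other receptor tyrosine kinases used against liver cancer. The labels state no dose and no time of treatment, each line is a single established culture model, and no label says that the 3 libraries of a group came from separate cultures. The p-values below therefore measure the spread between these libraries, which may be technical.

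The proteasome degrades proteins that carry ubiquitin chains. Its 20S core is a barrel of stacked rings, in which the alpha subunits (PSMA) form the gates and the beta subunits (PSMB) form the chamber with the catalytic sites of PSMB5, PSMB6 and PSMB7. A 19S particle caps the core. Its ATPases (PSMC) unfold the substrate, and its non-ATPase subunits (PSMD) bind, position and deubiquitinate it. Alternative caps (PSME) open the core without using ATP, and the chaperones PSMG1 to PSMG4 guide assembly of the core. In mammalian cells the transcription factor NFE2L1 raises many subunit genes together when proteasome activity falls, through antioxidant response elements in their promoters. Interferons instead induce PSMB8, PSMB9, PSMB10, PSME1 and PSME2.

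Promoter letters are shown for these 2 kinds of control. In the 250 bases before each RefSeq transcription start (GRCh38.p14), windows existed for 38 member genes, and they were searched on both strands. The antioxidant-type motif TGACNNNGC stood before 12 of the 38 genes, or 31.6%, against 16.0% of the 10342 tested genes with a window and 13.2% of all 27305 genes with one. Below are 29 bases around the match, 5′ to 3′ on the gene's strand with the match in capitals, for the genes on which later results turn: PSMB3, PSMC5, PSME4 and PSMG2 were called lower in both lines, and the changes of PSMD5, PSME1 and PSME2 differed between the lines. In PSMC5 and PSME4 the motif lies on the other strand, so the capitals are its reverse complement.
PSMB3: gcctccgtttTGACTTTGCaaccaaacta
PSMC5: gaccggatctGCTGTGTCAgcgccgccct
PSME4: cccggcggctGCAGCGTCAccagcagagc
PSMG2: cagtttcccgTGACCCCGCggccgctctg
PSMD5: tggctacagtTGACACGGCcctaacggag
PSME1: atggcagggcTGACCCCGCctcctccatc
PSME2: ccctggactgTGACCCAGCcagcaccgcc
These stretches lie at chr17:38752627-38752655, plus strand (PSMB3), chr17:63827654-63827682, plus strand (PSMC5), chr2:53971009-53971037, minus strand (PSME4), chr18:12658689-12658717, plus strand (PSMG2), chr9:120843038-120843066, minus strand (PSMD5), chr14:24136098-24136126, plus strand (PSME1) and chr14:24146767-24146795, minus strand (PSME2). The first capital was 104 bases before the start in PSMB3, 34 in PSME4, 39 in PSMG2, 134 in PSMD5, 86 in PSME1 and 175 in PSME2, and 57 before one of several starts in PSMC5. The other genes with the motif were PSMA4, PSMD3, PSMD9, PSMD12 and PSMG1. Longer context is given for PSMB3, a beta subunit whose RNA was called lower in both lines. Its call in the PLC line was lost when any 1 of 8 libraries was left out (edgeR, adjusted p 0.0544 to 0.155). The stretch lies at chr17:38752491-38752735, plus strand, over the 245 bases that end where GENCODE 29 places the first exon.
PSMB3: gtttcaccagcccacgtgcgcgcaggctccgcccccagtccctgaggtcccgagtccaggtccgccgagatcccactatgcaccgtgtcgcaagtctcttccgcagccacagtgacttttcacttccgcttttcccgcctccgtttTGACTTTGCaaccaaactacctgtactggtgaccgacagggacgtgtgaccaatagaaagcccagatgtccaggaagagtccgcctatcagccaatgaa
That window also held 2 copies of CCAAT on the printed strand, the box read by the trimeric factor NF-Y.

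The interferon-type motif GAAANNGAA stood before 5 of the 38 genes, or 13.2%, against 7.30% of tested genes and 8.41% of all genes. The 3 matches nearest to a start are shown, because PSMB10 rose in Huh7 and PSME2 had the largest decrease in PLC/PRF/5. The other matches lay before PSMB4 and PSMA4.
PSMB10: gggtaaaggcGAAAGCGAAagcaggaagt
PSME2: cctggggagtGAAAGCGAAagcccgggcg
PSMG4: ttccggggccGAAAGCGAAagcgcgctcg
Their positions are chr16:67936853-67936881, minus strand (PSMB10), chr14:24146620-24146648, minus strand (PSME2) and chr6:3258904-3258932, plus strand (PSMG4). All 3 held the same 9 letters, 21, 28 and 33 bases before their starts. Among the other motifs searched, CCAAT stood before 18 member genes (47.4%, against 41.8% of tested genes), the ETS-type CCGGAAG before 9 (23.7%, against 18.95%) and the heat shock type TTCNNNGAA before 5 (13.2%, against 7.32%). A match describes letters in the window and is not evidence that a factor binds there.

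In GENCODE 29 (GRCh38) the 44 genes lay on 17 chromosomes, with 8 on chromosome 14 and 7 on chromosome 17. PSMD1 lay at chr2:231056864-231172827, PSMC4 at chr19:39971005-39981441, PSMB5 at chr14:23016543-23035230 and PSMB10 at chr16:67934502-67937087, while PSME1 (chr14:24136158-24138967) and PSME2 (chr14:24143362-24147570) lay close together. Exons of 20 members overlapped an exon of another gene, 17 of them on the opposite strand. Among these were PSMD1 with HTR2B, PSMC5 with FTSJ3, PSME1 with EMC9, PSME2 with RNF31 and PSME4 with ACYP2. Whether the counting used strand is not given in these sources, so reads from such overlaps cannot be told apart. The table also held 22 rows of proteasome pseudogenes, of which none reached more than 3.71% of its parent gene's counts.

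Library totals ran from 70236175 to 75820318 counts. Over the tested genes, log2 values of libraries within a group correlated at 0.983 to 0.987, and no library stood apart. Of 10 hepatocyte lineage markers, 9 were above 1 FPKM (a level per transcript length and library size) in every library. The exception was TTR, at 0.12 FPKM in PLC/PRF/5 under DMSO. ALB was only just above 1 FPKM there, at 1.81 FPKM, against 545 FPKM in Huh7 under DMSO. APOB and SERPINA1 went the other way, at 281 and 83.5 FPKM in PLC/PRF/5 and 32.9 and 7.75 FPKM in Huh7 under DMSO. The markers' summed level was 1140 to 1506 FPKM in Huh7 libraries and 493 to 689 FPKM in PLC/PRF/5 libraries. None of 6 markers of leukocytes, endothelium and fibroblasts was above 1 FPKM in every library. Their summed level was 3.92 to 5.34 FPKM in Huh7 and 11.7 to 19.7 FPKM in PLC/PRF/5, where CD68 made up most of it at 16.2 FPKM under DMSO, and the endothelial gene PECAM1 stood at 1.10 FPKM. In Huh7 under DMSO the fibroblast genes COL1A1 and COL1A2 made up most of it at 3.13 and 1.06 FPKM. The leukocyte gene PTPRC and the endothelial gene VWF were near 0 in both lines.

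Proteasome genes were highly expressed in both lines. Under DMSO the median member stood at 33.4 FPKM in Huh7, against 3.86 FPKM for all tested genes, and at 27.4 FPKM in PLC/PRF/5, against 4.07 FPKM. In Huh7 the highest level was that of PSMB1, a non-catalytic beta subunit, at 113 ± 3.32 FPKM (SD, n = 3). The ATPases PSMC2 (94.3 ± 1.65 FPKM) and PSMC3 (93.0 ± 3.74 FPKM) followed, and their libraries overlapped with each other but not with those of PSMB1. In PLC/PRF/5 the alpha subunit PSMA7 came first at 105 ± 7.29 FPKM, ahead of PSMB5 (87.7 ± 5.81 FPKM) and PSMB3 (81.6 ± 9.46 FPKM), which overlapped. Most neighbours in the order could not be separated, since 27 of 43 neighbouring pairs overlapped in Huh7 and 31 of 43 in PLC/PRF/5.

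**Figure D1:**
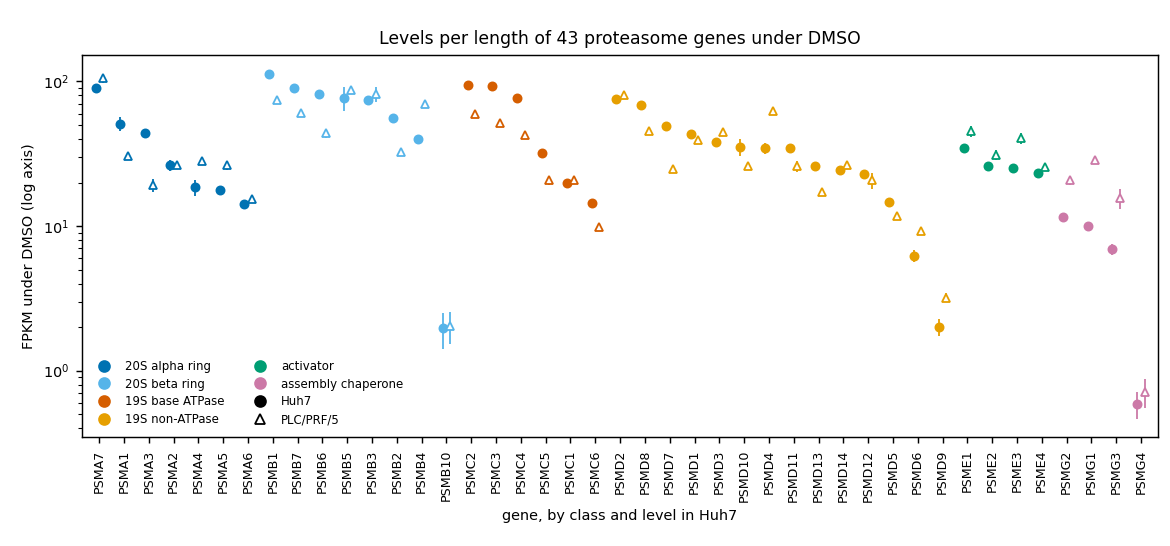
Levels per length (FPKM, log axis) of the 43 tested proteasome genes under DMSO in Huh7 (circles) and PLC/PRF/5 (triangles), as means with SD over 3 libraries, by class and by level in Huh7. Most genes lie between 10 and 113 FPKM, and PSMB10, PSMD9 and PSMG4 lie lowest in both lines.

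4 genes lay far below the rest. PSMB10, the interferon-induced counterpart of the trypsin-like subunit PSMB7, stood at 1.96 ± 0.555 FPKM in Huh7 and 2.05 ± 0.517 FPKM in PLC/PRF/5, while PSMB7 itself stood at 90.2 ± 1.08 and 60.2 ± 2.67 FPKM. The base assembly chaperone PSMD9 had 2.01 ± 0.274 and 3.20 ± 0.224 FPKM. PSMG4, a chaperone of alpha ring assembly, had 0.583 ± 0.123 and 0.713 ± 0.164 FPKM. PSMB11, the catalytic subunit of the thymus proteasome, gave 14 counts in all 12 libraries together and was the only member below the minimum of a mean of 0.5 FPKM. The remaining 43 members were tested in one fit of 15587 genes. Their counts per library ran from 213 for PSMB10 to 33820 for PSMD2.

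In Huh7, lenvatinib was accompanied by lower RNA of most proteasome genes. At an adjusted p under 0.05, 27 of the 43 tested members fell and 2 rose, while 14 did not pass. Among all 15587 genes tested, 13.3% fell and 11.4% rose. The median log2 fold change of the members was -0.27, a decrease of 17.2%, against 0.0018 for all genes. The log2 fold change was below 0 in 37 of 43, and the 3 lenvatinib libraries all lay below the 3 DMSO libraries for 28 members, against 21.3% of all genes. Leaving out any 1 library left 23 to 28 members called lower. In bulk RNA, less of a transcript per cell and fewer cells that make it cannot be told apart.

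All 6 ATPase (PSMC) genes fell in Huh7, by log2 values between -0.32 and -0.46. PSMC4, an ATPase of the base ring, had 233, 235 and 235 CPM under DMSO and 189, 171 and 182 CPM with lenvatinib in Huh7, as normalised counts (CPM, counts scaled to library size) throughout. The groups did not overlap (log2 fold change -0.37, SE 0.045, adjusted p = 1.66e-04). PSMC2, another ATPase of the ring, had 398, 409 and 394 CPM under DMSO and 318, 295 and 321 CPM with lenvatinib. It fell by 22.3% (log2 fold change -0.36, SE 0.046, adjusted p = 2.23e-04), again without overlap. For PSMC3 the values were 242, 257 and 262 CPM under DMSO and 193, 179 and 181 CPM with lenvatinib, a log2 fold change of -0.46 (SE 0.068, adjusted p = 6.36e-04). The 6 ATPases together summed to 1329 ± 19.8 CPM under DMSO and 1019 ± 28.3 CPM with lenvatinib (SD, n = 3), a fall of 23.4%.

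Of the 14 non-ATPase genes in Huh7, 9 fell, 1 rose and 4 did not pass. PSMD1, a large scaffold of the 19S base, had the smallest adjusted p of all members, with 271, 267 and 265 CPM under DMSO and 184, 179.5 and 198 CPM with lenvatinib. Every lenvatinib library was far below every DMSO library, a decrease of 30.1% (log2 fold change -0.52, SE 0.043, adjusted p = 1.24e-05). PSMD14, the metalloprotease that removes ubiquitin chains from substrates, had 212, 222 and 208 CPM under DMSO and 144, 129 and 148 CPM with lenvatinib. This was the largest decrease among the members (log2 fold change -0.61, SE 0.055, adjusted p = 2.20e-05). PSMD2, the second large scaffold, had 449, 444 and 454 CPM under DMSO and 353, 339 and 383 CPM with lenvatinib and fell without overlap (log2 fold change -0.32, SE 0.047, adjusted p = 5.44e-04). PSMD5 went the other way. This factor, which chaperones the base during assembly and dissociates from the finished particle, had 79.2, 76.3 and 77.5 CPM under DMSO and 97.8, 93.5 and 101 CPM with lenvatinib, and its lenvatinib libraries all lay above the DMSO libraries (log2 fold change 0.32, SE 0.05, adjusted p = 7.94e-04). The other base chaperones under PSMD symbols were PSMD10 (gankyrin, described as an oncoprotein in liver cancer), with a log2 fold change of -0.46 (SE 0.13, adjusted p = 0.0236), and PSMD9, at 0.20 (SE 0.12, adjusted p = 0.254). The call for PSMD10 was lost without Huh7 DMSO 1 or 3 or Huh7 lenvatinib 1 or 2 (adjusted p 0.0702 to 0.0877), that for PSMD7 without Huh7 DMSO 2 (adjusted p = 0.0591) and that for PSMD8 without Huh7 DMSO 1 or 2 or Huh7 lenvatinib 2 or 3 (adjusted p 0.0579 to 0.0867).

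In the core of Huh7 cells, 4 of 7 alpha genes and 6 of 8 beta genes fell and PSMB10 rose. PSMB1 had 296, 295 and 311 CPM under DMSO and 232, 240.1 and 217 CPM with lenvatinib, with no overlap (log2 fold change -0.39, SE 0.054, adjusted p = 4.14e-04). Of the 3 standard catalytic subunits, PSMB7 (trypsin-like) changed by -0.37 (SE 0.059, adjusted p = 9.34e-04) and PSMB6 (caspase-like) by -0.44 (SE 0.099, adjusted p = 0.00767). PSMB5, the chymotrypsin-like subunit and main target of bortezomib, did not pass in Huh7, with 144, 170.2 and 115 CPM under DMSO and 102, 123 and 130.5 CPM with lenvatinib. Its DMSO libraries spread widely and overlapped with the treated ones (log2 fold change -0.27, SE 0.15, adjusted p = 0.238, 95% interval -0.61 to 0.067). The alpha genes that fell were PSMA2, PSMA5, PSMA6 and PSMA7, with log2 fold changes from -0.48 (PSMA2) to -0.25 (PSMA6), and PSMA1, PSMA3 and PSMA4 did not pass. The call for PSMA6 was lost without Huh7 DMSO 1, 2 or 3 or Huh7 lenvatinib 1 or 2 (adjusted p 0.0628 to 0.0931) and that for PSMB4 without Huh7 DMSO 2 or 3 or Huh7 lenvatinib 2 (adjusted p 0.0665 to 0.090).

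PSMB10 rose from a low level in Huh7. It had 5.01, 2.91 and 3.65 CPM under DMSO and 7.88, 7.47 and 8.15 CPM with lenvatinib, or 213 to 347 counts against 553 to 585 counts per library. The groups did not overlap, and the fold change was 2.03 (log2 fold change 1.02, SE 0.29, adjusted p = 0.0236). The call was lost, leaving PSMD5 as the 1 member called higher, without Huh7 DMSO 2 or 3 or Huh7 lenvatinib 1 or 3 (adjusted p 0.0555 to 0.0847), where the log2 fold change was between 0.86 and 1.02. Of the activators and chaperones in Huh7, PSME4 (the nuclear activator PA200) and PSMG2 (a partner of PSMG1 in alpha ring assembly) fell, at -0.24 (SE 0.053, adjusted p = 0.00746) and -0.35 (SE 0.081, adjusted p = 0.00862). The interferon-responsive activator pair did not pass. PSME1 stood at 0.20 (95% interval 0.011 to 0.39, adjusted p = 0.119) and PSME2 at 0.058 (95% interval -0.14 to 0.26, adjusted p = 0.71), and PSME3 at -0.062 (adjusted p = 0.501).

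**Figure D2:**
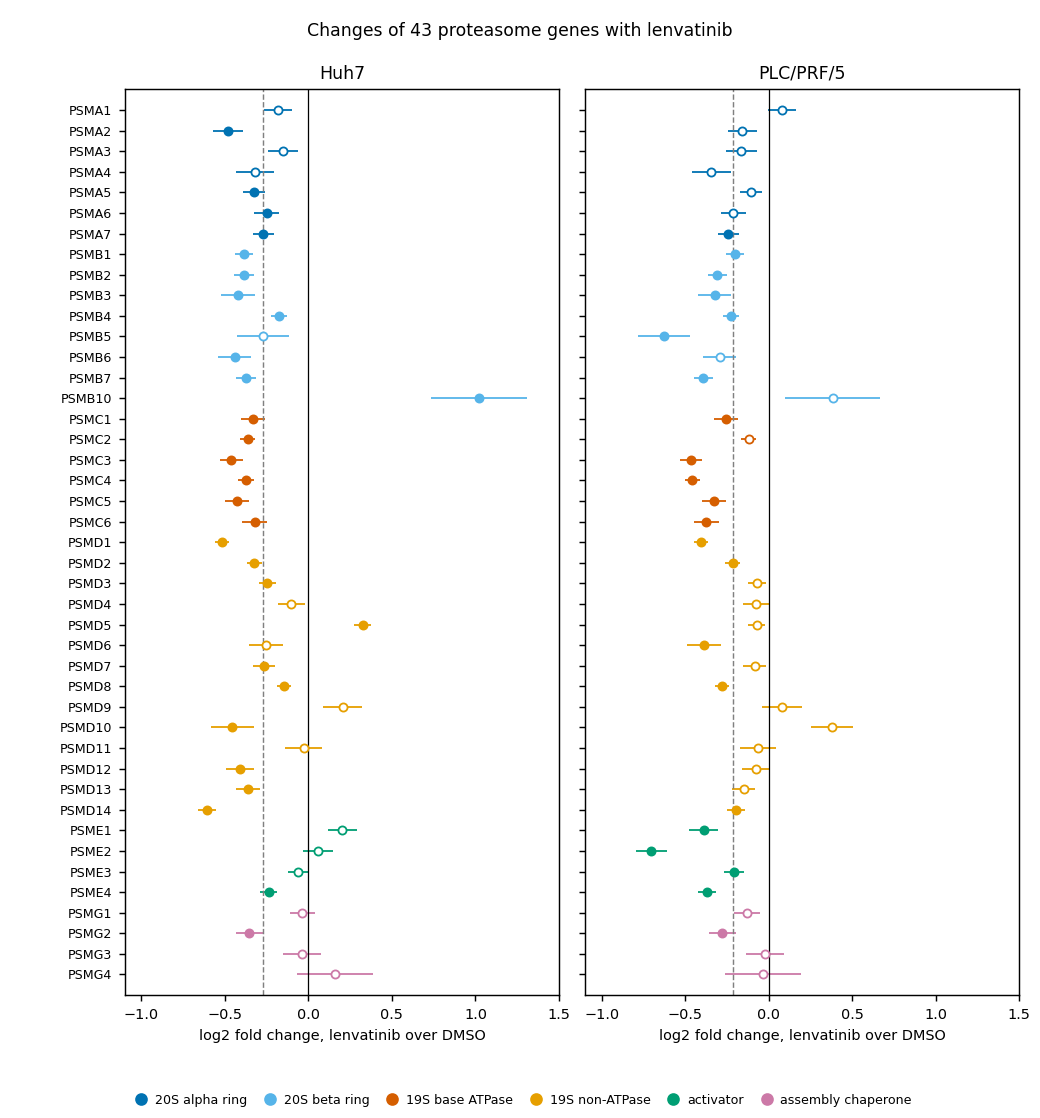
Log2 fold change, lenvatinib over DMSO, with its standard error, for the 43 tested genes in each line, from 3 libraries a group. Filled circles passed an adjusted p of 0.05, open circles did not, and the dashed line marks the members' median (-0.27 in Huh7, -0.21 in PLC/PRF/5). Most points lie left of 0 in both panels, and PSMB10 and PSMD5 are the filled points to the right of 0 in Huh7.

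In PLC/PRF/5, 22 of 43 members fell, none rose and 21 did not pass by edgeR. 1 member, PSMD10, was higher at an unadjusted p under 0.05 and was called higher by DESeq2 and by limma (adjusted p = 0.0285 and 0.0322), and by edgeR without Huh7 DMSO 2 or PLC lenvatinib 1 (adjusted p = 0.0417 and 0.0120). Without PLC lenvatinib 2 or 3 it did not reach an unadjusted p under 0.05 (adjusted p = 0.174 and 0.185). Of all genes, 11.1% fell and 9.01% rose. The median member changed by -0.21 on the log2 scale, a decrease of 13.6%, against -0.0075 for all genes, and 39 of 43 were below 0. For 27 members the lenvatinib libraries all lay below the DMSO libraries, against 21.5% of all genes. The scaling factors of the libraries moved with treatment in this line. They were 0.973 to 0.979 under DMSO and 1.03 with lenvatinib in each library. With library totals alone as the scaling, 13 members were called lower and 1 higher, against 7.76% of all genes lower, the median was -0.13 and 33 were below 0. That scaling also moved the share of higher genes among all genes called from 44.8% to 63.1%. In unscaled counts, the members together took 0.615% to 0.633% of each DMSO library and 0.555% to 0.565% of each lenvatinib library.

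PSMC4 and PSMD1, both of the 19S base, had the smallest adjusted p in PLC/PRF/5. PSMC4 had 133, 131 and 126 CPM under DMSO and 94.7, 92.8 and 97.1 CPM with lenvatinib, and the groups were well apart (log2 fold change -0.46, SE 0.045, adjusted p = 1.21e-04). PSMD1 had 245, 251 and 239.7 CPM under DMSO and 182, 186 and 188 CPM with lenvatinib, a decrease of 24.5% (log2 fold change -0.41, SE 0.043, adjusted p = 1.92e-04). PSMC3 had 143, 140.3 and 136 CPM under DMSO and 100.2, 112 and 92.1 CPM with lenvatinib (log2 fold change -0.47, SE 0.068, adjusted p = 0.00108). Of the 6 ATPase genes, 5 fell in this line. The remaining one, PSMC2, had 266, 248 and 248 CPM under DMSO and 228, 236 and 237 CPM with lenvatinib, without overlap but short of the threshold (log2 fold change -0.12, SE 0.046, adjusted p = 0.0908). Of the 14 non-ATPase genes 5 fell, which were PSMD1, PSMD2, PSMD6, PSMD8 and PSMD14. PSMD8, a lid subunit, had 175, 163 and 169 CPM under DMSO and 139, 138 and 141 CPM with lenvatinib (log2 fold change -0.28, SE 0.041, adjusted p = 0.00108).

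In the core, 6 of 8 beta genes but 1 of 7 alpha genes (PSMA7) passed in PLC/PRF/5, all of them lower. PSMB7 had 135, 123 and 129 CPM under DMSO and 106, 90.6 and 98.1 CPM with lenvatinib, with no overlap (log2 fold change -0.39, SE 0.059, adjusted p = 0.00121). PSMB5 had 174, 162 and 151 CPM under DMSO and 95.9, 125 and 95.1 CPM with lenvatinib. Its treated libraries all lay below the untreated ones, and its RNA decreased by 35.2% (log2 fold change -0.63, SE 0.15, adjusted p = 0.0171). That call was lost without PLC DMSO 1 or PLC lenvatinib 1 or 3 (adjusted p 0.0582 to 0.0653). PSMB6 changed by -0.29 (SE 0.099, adjusted p = 0.0615) and PSMB10 by 0.38 (SE 0.28, adjusted p = 0.394), and neither passed. For the alpha genes, the median log2 fold change was -0.16, against -0.30 for the beta genes.

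All 4 activator genes fell in PLC/PRF/5. PSME2, the beta chain of the interferon-responsive PA28 cap, had 137, 122 and 141 CPM under DMSO and 89.5, 78.9 and 78.1 CPM with lenvatinib. The groups were apart, and the decrease of 38.5% was the largest of any member in this line (log2 fold change -0.70, SE 0.091, adjusted p = 5.44e-04). Its partner chain PSME1 had 106, 89.1 and 92.8 CPM under DMSO and 72.6, 80.5 and 66.7 CPM with lenvatinib (log2 fold change -0.39, SE 0.087, adjusted p = 0.00997). PSME4 had 306, 319 and 338 CPM under DMSO and 248, 241 and 255 CPM with lenvatinib (log2 fold change -0.37, SE 0.053, adjusted p = 9.22e-04). PSME3, the nuclear PA28 gamma, changed less, at -0.21 (SE 0.059, adjusted p = 0.0304). The PSME3 call was lost without PLC DMSO 2 or PLC lenvatinib 1, 2 or 3 (adjusted p 0.0537 to 0.106). The 4 activators together summed to 801 ± 15.7 CPM under DMSO and 620.1 ± 3.03 CPM with lenvatinib, 22.6% less, whereas in Huh7 the same sum went from 634 ± 23.9 to 599 ± 23.4 CPM. Of the chaperones, PSMG2 fell (-0.28, SE 0.081, adjusted p = 0.0341), a call lost without PLC DMSO 1 or 2 or PLC lenvatinib 1, 2 or 3 (adjusted p 0.0509 to 0.11), and PSMG1, PSMG3 and PSMG4 did not pass.

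Of the 22 calls in PLC/PRF/5, 11 held in each of 21 other settings, and of the 29 calls in Huh7, 23 did. The 11 in PLC/PRF/5 were PSMB2, PSMB7, PSMC3, PSMC4, PSMC5, PSMC6, PSMD1, PSMD8, PSME1, PSME2 and PSME4. Leaving out any 1 library left 15 to 23 members called lower in PLC/PRF/5, the fewest without PLC DMSO 1. The call for PSMA7 was lost without PLC DMSO 1 or PLC lenvatinib 2 or 3 (adjusted p 0.0705 to 0.0783) and that for PSMB1 without PLC DMSO 1 or 2 or PLC lenvatinib 1 or 3 (adjusted p 0.0535 to 0.0789). PSMB3 lost its call without Huh7 DMSO 1 or 2, Huh7 lenvatinib 1 or 2, PLC DMSO 1 or 2 or PLC lenvatinib 2 or 3 (adjusted p 0.0544 to 0.155). PSMC1 lost its call without PLC DMSO 1 or 2 or PLC lenvatinib 1 or 3 (adjusted p 0.0573 to 0.10), and PSMD6 without PLC DMSO 3 or PLC lenvatinib 1 (adjusted p 0.0605 to 0.0678).

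**Figure D3:**
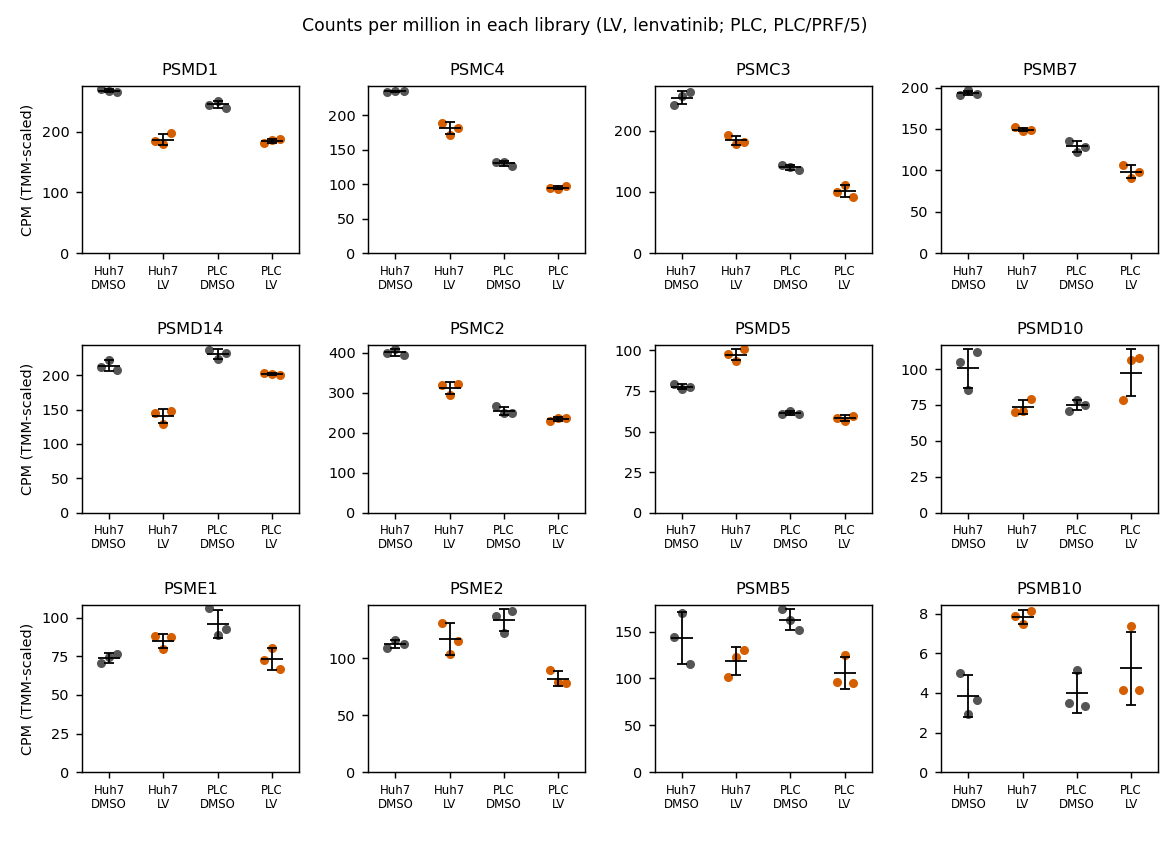
CPM after scaling in each of the 12 libraries for 12 proteasome genes, with the mean (long bar) and SD of each group of 3, on axes that start at 0. In the top row both lines drop with lenvatinib. The middle row and PSME1 and PSME2 hold the 6 genes whose change differed between the lines, and the libraries of PSMB5 and PSMB10 spread widely.

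Part of the decreases was shared by the lines. Called lower in both lines were 17 of the 43 members, or 39.5%, against 4.003% of all genes tested. They were PSMA7, PSMB1, PSMB2, PSMB3, PSMB4, PSMB7, PSMC1, PSMC3, PSMC4, PSMC5, PSMC6, PSMD1, PSMD2, PSMD8, PSMD14, PSME4 and PSMG2. These 17 are 63.0% of the members called lower in Huh7 and 77.3% of those called lower in PLC/PRF/5. The shared count was 8 with library totals alone, 9 with no filter, 9 with limma on either scale, 11 in fits of the compared groups only and 11 without PLC DMSO 1. Of all genes, 2.73% were then shared with library totals alone, 1.12% with no filter and 2.85% with limma on either scale. The share was 3.07% in fits of the compared groups only and 3.28% without PLC DMSO 1. The log2 fold change was below 0 in both lines for 35 members, against 29.6% of all genes. The lines share no libraries, but the calls of both came from 1 fit with the spread estimated over all 12 libraries. Across the 43 genes, which are not independent replicates, the changes in the 2 lines had a Spearman rho of 0.338 and a Pearson r of 0.400. Of the 17, 14 had a promoter window, and 4 of these held TGACNNNGC, against 8 of the 23 other tested members with a window.

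The change itself was tested between the lines. It differed for 6 of 43 members, against 14.4% of all genes, a share near the background and not a result about the members as a group. There were 3 changes higher and 3 lower in PLC/PRF/5 than in Huh7. PSMD14 had 237, 223 and 232 CPM under DMSO and 203, 202 and 200.2 CPM with lenvatinib in PLC/PRF/5, a smaller decrease than in Huh7 (log2 fold change -0.19 against -0.61; difference 0.41, SE 0.078, adjusted p = 0.00521). Its call in PLC/PRF/5 alone was lost without PLC DMSO 1 or 3 or PLC lenvatinib 1, 2 or 3 (adjusted p 0.0685 to 0.0927). PSMD10 had opposite signs in the lines, with 105, 85.4 and 112 CPM under DMSO and 70.01, 71.1 and 79.0 CPM with lenvatinib in Huh7 and 71.1, 78.6 and 75.0 CPM under DMSO and 78.6, 106 and 108 CPM with lenvatinib in PLC/PRF/5. In Huh7 the groups did not overlap, while in PLC/PRF/5 the highest DMSO library and the lowest lenvatinib library were level, and the change in PLC/PRF/5 did not pass by itself (log2 fold change 0.38, SE 0.13, adjusted p = 0.0603). The difference was 0.84 (SE 0.18, adjusted p = 0.0108). For PSMC2 the difference was 0.24 (SE 0.065, adjusted p = 0.0299), and this call was lost without Huh7 DMSO 1, 2 or 3, PLC DMSO 2 or 3 or PLC lenvatinib 2 or 3 (adjusted p 0.0516 to 0.0756). Without 1 library, 2 to 5 changes were called higher in PLC/PRF/5, the most without Huh7 lenvatinib 3, and 3 were called lower each time.

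Lower in PLC/PRF/5 than in Huh7 were the changes of PSME2, PSME1 and PSMD5. PSME2 had 109, 116 and 113 CPM under DMSO and 131, 104 and 116 CPM with lenvatinib in Huh7, where the groups overlapped, and the difference from its decrease in PLC/PRF/5 was -0.76 (SE 0.13, adjusted p = 0.00277). PSME1 had 70.4, 74.8 and 76.4 CPM under DMSO and 88.1, 79.6 and 87.4 CPM with lenvatinib in Huh7, where the treated libraries were all higher, and the difference was -0.59 (SE 0.12, adjusted p = 0.00867). PSMD5 had 60.6, 62.9 and 60.6 CPM under DMSO and 58.6, 56.7 and 59.8 CPM with lenvatinib in PLC/PRF/5, close together but not overlapping, and the difference was -0.40 (SE 0.07, adjusted p = 0.00363). For PSMB10 the difference did not pass (-0.64, SE 0.40, adjusted p = 0.341, 95% interval -1.52 to 0.25), nor for PSMB5 (-0.35, SE 0.22, adjusted p = 0.33, 95% interval -0.83 to 0.13). The difference was near 0 for PSMC3 (-0.0025, 95% interval -0.21 to 0.21) and PSMB7 (-0.017, 95% interval -0.20 to 0.17). These intervals do not show that the changes were equal in the lines.

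**Figure D4:**
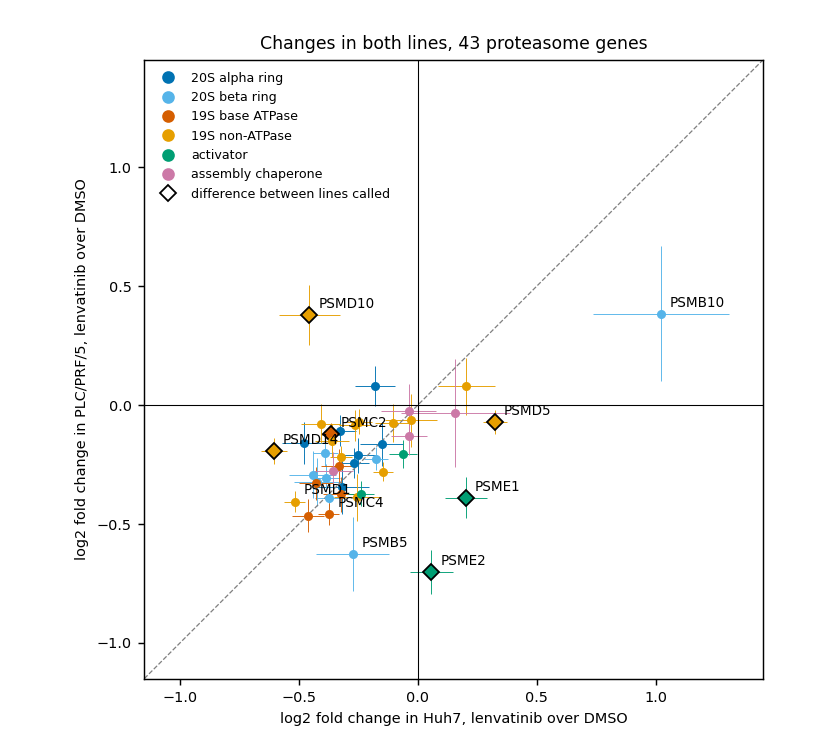
Log2 fold change with lenvatinib in PLC/PRF/5 (vertical) against Huh7 (horizontal) for 43 genes, each with its standard errors, and the dashed line of equal change. Diamonds mark the 6 genes whose change differed between the lines. Most genes sit at the lower left, PSMD10 lies in the upper left, and PSME1, PSME2 and PSMD5 lie in the lower right.

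Summed by class, the ATPases had the largest relative decrease of the summed level in Huh7 among the core and 19S classes, and the beta ring had it in PLC/PRF/5. By the median log2 fold change per gene, the order of these 2 classes was reversed in both lines. The medians were -0.37 for the ATPases and -0.38 for the beta ring in Huh7, and -0.35 and -0.30 in PLC/PRF/5. The summed beta ring went from 1291 ± 32.3 to 1009 ± 16.3 CPM in Huh7 (21.9% less) and from 1036 ± 60.6 to 828 ± 5.61 CPM in PLC/PRF/5 (20.1% less). The summed ATPases of PLC/PRF/5 went from 873 ± 23.6 to 711 ± 28.0 CPM (18.5% less). The alpha ring changed by -17.5% in Huh7 and -11.9% in PLC/PRF/5, and the non-ATPase genes by -16.8% and -10.1%. All 43 members together went from 6979 ± 167 to 5723 ± 130 CPM in Huh7 and from 6408 ± 118 to 5464 ± 71.3 CPM in PLC/PRF/5, changes of -18.0% and -14.7%. No test was made on the sums, which give most weight to the genes with the most reads.

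**Figure D5:**
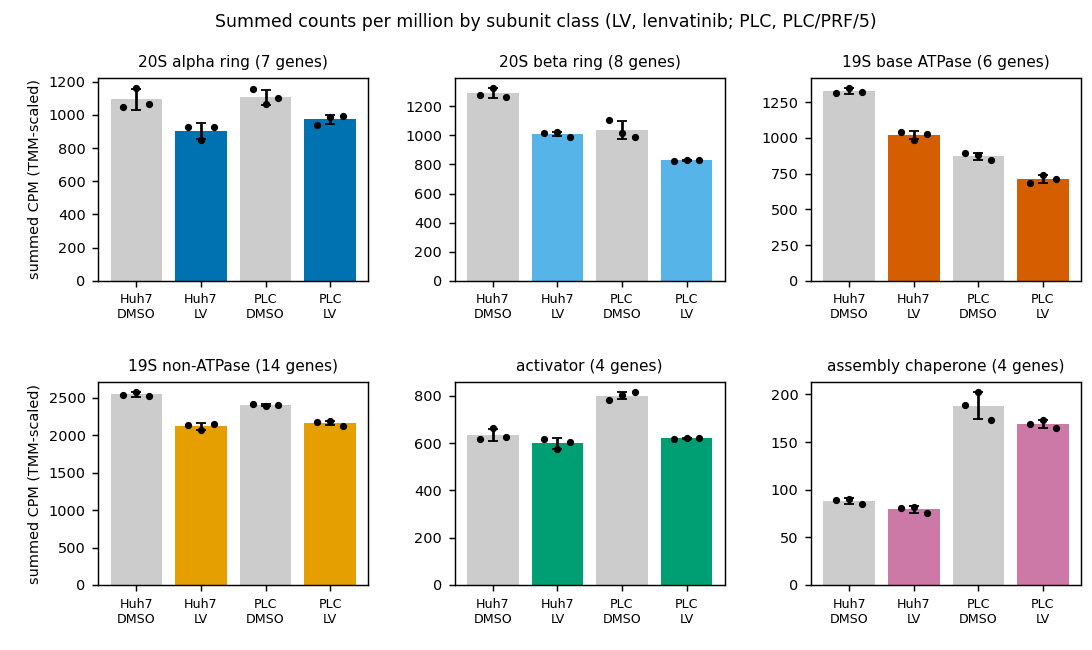
Summed CPM of each class in every library (points), with group means (bars from 0) and SD, 3 libraries a group. The ATPase bars are 23.4% lower with lenvatinib in Huh7 and 18.5% lower in PLC/PRF/5, and the activator bars 5.56% and 22.6% lower.

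The lines were also compared without drug. Under DMSO, PLC/PRF/5 was higher than Huh7 for 15 members and lower for 18, while 33.9% of all genes were higher and 33.1% lower. The shares are near those of all genes and are not a result about these members. Of 6 ATPases, 5 were lower in PLC/PRF/5, all but PSMC1, and their sum was 34.4% lower. All 4 activators were higher, with a sum 26.2% higher, and 3 of 4 assembly chaperones were higher, with a sum 114% higher. The call for PSME2 was lost without Huh7 DMSO 1, 2 or 3 or PLC DMSO 1 or 3 (adjusted p 0.0531 to 0.116), that for PSME4 without Huh7 DMSO 1 or 3, Huh7 lenvatinib 2 or PLC DMSO 2 or 3 (adjusted p 0.0524 to 0.17), and the lower call for PSMD1 without PLC DMSO 3 (adjusted p = 0.0538).

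PSMG1, which pairs with PSMG2 to build the alpha ring, had 24.2, 27.6 and 25.7 CPM in Huh7 and 75.0, 78.2 and 68.2 CPM in PLC/PRF/5 under DMSO. No libraries of the lines overlapped, a log2 difference of 1.51 (SE 0.078, adjusted p = 2.45e-08). PSMG3 and PSMG2 were higher by 1.16 (SE 0.12, adjusted p = 4.46e-06) and 0.84 (SE 0.081, adjusted p = 3.63e-06). PSMD4, the ubiquitin receptor of the lid and base junction, was higher by 0.84 (SE 0.08, adjusted p = 3.13e-06), the beta subunit PSMB4 by 0.80 (SE 0.049, adjusted p = 9.72e-08) and PSME3 by 0.67 (SE 0.059, adjusted p = 1.56e-06). In the other direction, PSMA3, an alpha ring subunit, had 149.8, 171 and 171 CPM in Huh7 and 71.0, 78.8 and 64.0 CPM in PLC/PRF/5. It was the member that was lowest relative to Huh7 (-1.20, SE 0.093, adjusted p = 5.60e-07). PSMD7, the partner of PSMD14 in the lid, had 155, 167 and 157 CPM in Huh7 and 84.2, 78.5 and 77.5 CPM in PLC/PRF/5 (-0.998, SE 0.067, adjusted p = 1.84e-07). Also lower were PSMC4 (-0.85, SE 0.045, adjusted p = 3.25e-08), PSMD8 (-0.60, SE 0.041, adjusted p = 2.27e-07), PSMC2 (-0.66, SE 0.046, adjusted p = 2.60e-07) and PSMB2 (-0.77, SE 0.059, adjusted p = 5.34e-07). The catalytic PSMB6 and PSMB7 were lower by -0.91 (SE 0.099, adjusted p = 9.57e-06) and -0.59 (SE 0.059, adjusted p = 4.64e-06), while PSMB5 (0.18, adjusted p = 0.311) and PSMB10 (0.056, adjusted p = 0.874) did not pass.

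Partners of the proteasome outside the PSM symbols were grouped by role. Beside each count below stand 13.3% lower and 11.4% higher among all genes in Huh7, and 11.1% lower and 9.01% higher in PLC/PRF/5. Of 14 assembly and associated factors tested, 6 fell and 1 rose in Huh7, and 3 fell and 2 rose in PLC/PRF/5. In Huh7 the rise of ECPAS lost its call when any 1 of 5 libraries was left out (adjusted p 0.0524 to 0.122). The fall of UBE3C there was lost with any 1 of 3 left out (adjusted p 0.0547 to 0.0721). In PLC/PRF/5 the rise of PAAF1 was lost with any 1 of 7 left out (adjusted p 0.0523 to 0.137). POMP, the chaperone that completes the beta rings, had 148, 155 and 158 CPM under DMSO and 111, 106 and 107 CPM with lenvatinib in Huh7 and 145, 144 and 141 CPM under DMSO and 106, 99.7 and 117 CPM with lenvatinib in PLC/PRF/5. It fell in both lines without overlap, by -0.51 (SE 0.058, adjusted p = 1.13e-04) and -0.42 (SE 0.058, adjusted p = 8.23e-04). ADRM1, a ubiquitin receptor of the 19S particle, fell by -0.31 (SE 0.064, adjusted p = 0.00481) in Huh7 and -0.41 (SE 0.064, adjusted p = 0.00149) in PLC/PRF/5. SEM1, the smallest lid subunit, changed by -0.38 (SE 0.079, adjusted p = 0.00492) in Huh7, and the nuclear import factor IPO9 by -0.25 (SE 0.05, adjusted p = 0.00425). In PLC/PRF/5, TXNL1, a proteasome-bound thioredoxin, fell by -0.29 (SE 0.065, adjusted p = 0.010), and ECPAS, a proteasome adaptor, rose by 0.18 (SE 0.044, adjusted p = 0.0173), a call lost without PLC DMSO 2 or PLC lenvatinib 1 or 2 (adjusted p 0.0517 to 0.0624). UCHL5, a deubiquitinase docked on ADRM1, had a change that differed between the lines (0.51, SE 0.11, adjusted p = 0.0131).

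Of 13 genes for transcription control of the proteasome, 3 fell and 3 rose in Huh7, and 3 fell and 1 rose in PLC/PRF/5, where 9.01% of all genes rose. The Huh7 counts include FOXM1, which fell, and NFYC, which rose. The FOXM1 call was lost when any 1 of 4 libraries was left out (adjusted p 0.0745 to 0.111). The NFYC call was lost with either of 2 left out (adjusted p 0.0502 to 0.0547). NFE2L1 RNA did not pass in either line. It had 198, 202 and 209.8 CPM under DMSO and 132, 219 and 243 CPM with lenvatinib in Huh7, where the treated libraries spread over both sides of the controls (log2 fold change -0.038, SE 0.17, adjusted p = 0.914, 95% interval -0.42 to 0.34). In PLC/PRF/5 it had 386, 367 and 362 CPM under DMSO and 455, 441 and 392 CPM with lenvatinib (log2 fold change 0.21, SE 0.17, adjusted p = 0.454, 95% interval -0.17 to 0.59). DDI2, the protease that releases NFE2L1 from the membrane, rose in Huh7 (0.32, SE 0.051, adjusted p = 9.99e-04). NFYA, a subunit of the CCAAT factor NF-Y, fell in both lines, by -0.31 (SE 0.066, adjusted p = 0.00633) in Huh7 and -0.41 (SE 0.067, adjusted p = 0.00197) in PLC/PRF/5. Of the small MAF genes, partners of NFE2L1, MAFG fell in Huh7 (-0.79, SE 0.18, adjusted p = 0.00818) and MAFF in PLC/PRF/5 (-0.83, SE 0.25, adjusted p = 0.0412). MAFG did not pass in PLC/PRF/5, MAFF did not pass in Huh7, and MAFK passed in neither line. NFE2L3, a relative of NFE2L1, rose in PLC/PRF/5 (0.38, SE 0.092, adjusted p = 0.0146). The call for NFE2L3 was lost without PLC DMSO 3 or PLC lenvatinib 2 (adjusted p 0.0503 to 0.0529) and that for MAFF without Huh7 DMSO 1, 2 or 3, Huh7 lenvatinib 1, PLC DMSO 1, 2 or 3 or PLC lenvatinib 1 or 3 (adjusted p 0.0506 to 0.126). STAT3, a cytokine-activated factor, rose in Huh7 (0.61, SE 0.063, adjusted p = 5.31e-05) and fell in PLC/PRF/5 (-0.39, SE 0.063, adjusted p = 0.00182), and the difference passed (-0.998, SE 0.089, adjusted p = 5.35e-05).

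Ubiquitin genes and enzymes supply the proteasome's substrates. Of 13 tested, 3 fell in Huh7 and 5 in PLC/PRF/5, against 13.3% and 11.1% of all genes. The PLC/PRF/5 count includes UBB and UBE2N. Each lost its call when any 1 of 4 libraries was left out (adjusted p 0.0541 to 0.103 and 0.0555 to 0.0798). UBE2S, which extends chains for the anaphase-promoting complex, fell by -0.76 (SE 0.051, adjusted p = 2.92e-06) in Huh7 and -0.45 (SE 0.051, adjusted p = 2.76e-04) in PLC/PRF/5. Its partner enzyme UBE2C (-0.58, SE 0.083, adjusted p = 5.36e-04) and the second activating enzyme UBA6 (-0.36, SE 0.062, adjusted p = 0.00163) fell in Huh7, while the main activating enzyme UBA1 (-0.37, SE 0.047, adjusted p = 5.01e-04) and the ubiquitin fusion gene RPS27A (-0.32, SE 0.063, adjusted p = 0.00507) fell in PLC/PRF/5. Of 11 shuttle and segregase genes, 3 fell in each line and 1 rose in Huh7, where 11.4% of all genes rose. Among those that fell was FAF2, in both lines. The Huh7 call of FAF2 was lost when any 1 of 9 libraries was left out (adjusted p 0.0521 to 0.131). Its PLC/PRF/5 call was lost with any 1 of 8 left out (adjusted p 0.0551 to 0.130). The gene that rose, UBQLN2, lost its call with any 1 of 4 left out (adjusted p 0.0516 to 0.0733). VCP, the ATPase that extracts ubiquitinated proteins from complexes, had 724, 708 and 729 CPM under DMSO and 611, 606 and 605 CPM with lenvatinib in Huh7 and 1103, 1063 and 1085 CPM under DMSO and 802, 843 and 829 CPM with lenvatinib in PLC/PRF/5. It fell by -0.25 (SE 0.032, adjusted p = 2.88e-04) and -0.39 (SE 0.032, adjusted p = 3.55e-05), with no overlap in either line. Its cofactor UFD1 changed by -0.30 (SE 0.043, adjusted p = 5.93e-04) in Huh7, and the shuttle RAD23B by -0.13 (SE 0.034, adjusted p = 0.0221) in PLC/PRF/5, a call lost without PLC DMSO 2 or PLC lenvatinib 1, 2 or 3 (adjusted p 0.052 to 0.0747).

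Of 3 tested regulators of the interferon-responsive subunits, 2 rose in Huh7 and 2 fell in PLC/PRF/5. STAT2 rose in Huh7 (0.45, SE 0.083, adjusted p = 0.00243) and fell in PLC/PRF/5 (-0.37, SE 0.082, adjusted p = 0.00945). IRF1, a direct activator of several interferon-responsive genes, had 18.7, 18.3 and 17.6 CPM under DMSO and 24.7, 24.5 and 34.0 CPM with lenvatinib in Huh7 (log2 fold change 0.61, SE 0.17, adjusted p = 0.0207) and 20.3, 15.8 and 20.2 CPM under DMSO and 17.6, 17.3 and 13.0 CPM with lenvatinib in PLC/PRF/5 (log2 fold change -0.23, SE 0.17, adjusted p = 0.377). The Huh7 call for IRF1 was lost without Huh7 DMSO 2 or 3 or Huh7 lenvatinib 3 (adjusted p 0.0567 to 0.0743). IRF9 changed by -0.98 (SE 0.26, adjusted p = 0.0219) in PLC/PRF/5, a call lost without PLC DMSO 2 or PLC lenvatinib 3 (adjusted p 0.0786 to 0.0811). The changes of STAT2 and IRF1 were lower in PLC/PRF/5 than in Huh7 by -0.83 and -0.84 on the log2 scale, as were those of PSME1 and PSME2, and their part in the changes of those members was not tested.

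Under DMSO, 33.9% of all genes were higher and 33.1% lower in PLC/PRF/5, and the counts of the lists are to be read against these shares. PLC/PRF/5 was higher for 7 and lower for 4 of the 14 associated factors, higher for 6 and lower for 5 of the 13 transcription genes, higher for 4 and lower for 5 of the 13 ubiquitin genes, higher for 4 and lower for 5 of the 11 shuttle genes, and higher for 2 of the 3 interferon regulators. NFE2L1 had 198, 202 and 209.8 CPM in Huh7 and 386, 367 and 362 CPM in PLC/PRF/5, with no overlap (0.87, SE 0.17, adjusted p = 0.00109). VCP was higher in PLC/PRF/5 by 0.59 (SE 0.032, adjusted p = 3.91e-08). The VCP cofactor NSFL1C was lower by -1.32 (SE 0.096, adjusted p = 3.52e-07).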

How the data were processed

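RNA of 12 libraries (Huh7 and PLC/PRF/5, DMSO or lenvatinib, 3 each) was extracted with an RNeasy kit, converted from mRNA with random hexamers and sequenced as single reads on a BGISEQ-500, per the labels' protocols. The submitters' processing notes name HISAT2, with no version, and the build hg19. Counter, annotation and strand handling are not stated there. The deposited table holds a raw count and an FPKM per gene and library, per the file headers, both used as the authors gave them. It has 12 further per-sample columns that match no sample here and were not used. The FPKM of tested members followed count per total and length within 0.0102 on the log2 scale.

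Counts of the 15587 genes with a mean of at least 0.5 FPKM were fitted with edgeR 4.0.16 (R 4.3.3; TMM scaling, robust quasi-likelihood F test, 1 coefficient per group over all 12 libraries; common biological coefficient of variation 0.234) with Benjamini-Hochberg adjustment over all genes and a threshold of 0.05. CPM are counts scaled to library size after TMM. The SE of a log2 fold change is its size divided by the square root of F. The fit was first tested on simulated data in which few genes changed, so scaling under changes as broad as those here was not tested. Counting error alone is small at 70236175 to 75820318 counts per library, so the spread between libraries sets the precision. FPKM served for levels. Motifs were searched in RefSeq promoter windows, and gene positions came from GENCODE 29.

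Members, gene lists and tests were chosen with earlier results of these data known. Named with values are, in each comparison, the up to 6 members of smallest adjusted p in each direction and the up to 4 genes of smallest adjusted p of each pathway list, with the catalytic subunits, the activators and NFE2L1. Other members given with values, the motifs and the promoters shown were chosen after their values were seen. Some genes of the pathway lists are not reported here. The list symbols SHFM1, KIAA0368 and UFD1L were not in the table, and SEM1, ECPAS and UFD1 stood for them. Alternatives were DESeq2 size factors, library totals alone, no filter, filterByExpr, DESeq2 1.42.0, limma 3.58.1 on log2(FPKM + 1) and log2(FPKM + 0.1), the compared groups alone, a replicate block and leaving out each library.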

Additional observations from a re-analysis of the deposited data

Results flagged for a closer look

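The change with lenvatinib differed between PLC/PRF/5 and Huh7 in the test of the difference itself (edgeR) for 6 of 43 members, a share near the 14.4% of all genes that differed. As log2 differences, PLC/PRF/5 minus Huh7, these were 0.84 for PSMD10, 0.41 for PSMD14, 0.24 for PSMC2, -0.40 for PSMD5, -0.59 for PSME1 and -0.76 for PSME2. PSMD10, PSMD5, PSME1 and PSME2 had changes of opposite sign in the 2 lines, although in each case one of the 2 changes did not pass by itself. PSMD14 fell less in PLC/PRF/5 than in Huh7, and PSMC2 fell in Huh7 while its change in PLC/PRF/5 did not pass.

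Among partners of the proteasome, the difference passed for the deubiquitinase UCHL5 (0.51), the ubiquitin enzymes UBE2C (0.59), UBA6 (0.41), UBE2S (0.31) and UBA1 (-0.33), and the segregase cofactor UFD1 (0.21). It also passed for the transcription factors STAT3 (-0.998), STAT2 (-0.83) and IRF1 (-0.84). The calls for PSMC2, UFD1 and IRF1 were lost when certain single libraries were left out, 7, 11 and 7 of the 12 libraries in that order.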

How the results depend on the processing

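Scaling mattered most in PLC/PRF/5. There TMM gave 22 members called lower and a median log2 fold change of -0.21. Library totals alone gave 13 and -0.13, limma gave 13 and -0.13 on log2(FPKM + 1), and 12 and -0.13 on log2(FPKM + 0.1). Each of these 3 alternatives, DESeq2 and the replicate block called 1 member higher. Library totals alone moved the log2 fold changes of all genes in PLC/PRF/5 by a median of 0.078, and the share of higher calls in the difference between lines from 52.0% to 61.8%. Members called lower in both lines, a count followed across the alternatives only after seeing the data, numbered 17, but 8 with library totals alone, 9 with no filter, 9 and 9 with limma, 11 in fits of the compared groups only, and 11 to 18 without 1 library. The share of all genes was 4.003%, but 2.73% with library totals alone, 1.12% with no filter and 2.85% with limma on either scale. It was 3.07% in fits of the compared groups only and 3.07% to 3.83% without 1 library.

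Without 1 library, Huh7 had 23 to 28 members lower and 1 to 2 higher, PLC/PRF/5 had 15 to 23 and 0 to 1, the difference between lines had 3 to 3 and 2 to 5, and the lines under DMSO had 17 to 19 and 13 to 15. The medians ranged from -0.31 to -0.24, from -0.23 to -0.19, from -0.0079 to 0.056 and from 0.028 to 0.080 in that order.

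Over the tested genes, same-numbered libraries showed no shared deviation (correlations -0.0131 to 0.0190). Such values cannot show whether equal numbers mark a shared culture or day, which the labels do not say. A replicate block within each line gave 25 lower and 2 higher in Huh7, 19 and 1 in PLC/PRF/5, 3 and 2 in the difference, and 16 and 13 under DMSO.

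Among named genes, signs turned for 6 values, none of which had passed. PSMB7 in the difference stood at 0.037 (library totals), 0.0055 (no filter), 0.040 and 0.038 (limma), and between -0.075 and 0.038 without 1 library. IRF9 in Huh7 stood at 0.012 and 0.026 (limma), 0.0037 (replicate block), and between -0.19 and 0.19 without 1 library. Without 1 library, PSME2 ranged from -0.034 to 0.14 and NFE2L1 from -0.21 to 0.18 in Huh7, and under DMSO PSMB10 from -0.18 to 0.28 (-0.38 with the replicate block) and IRF1 from -0.026 to 0.14. The causes were not tested. Direction and side of the threshold held for 691 of 735 values in Huh7, 599 of 672 in PLC/PRF/5, 592 of 640 in the difference and 799 of 819 under DMSO. Precision was lowest for PSMB10 and PSMG4, the tested members with the fewest counts.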
